A study of Mus musculus with 6 samples.

Results

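Interferon-stimulated genes are the transcripts that cells raise when an interferon binds its receptor, and 36 of them outside the p200 (PYHIN) cluster were followed here, chosen by symbol from the 30029 genes of a mouse liver count table. All 36 had a row in the table and all 36 had enough counts to be tested, among 17606 tested genes. The comparison was between 3 livers labelled ATP7B knockout (KO) and 3 livers labelled wild type (WT), all 6 from mice fed a high-fat diet over 24 weeks, so no liver without the diet entered it. ATP7B is the pump that loads copper into secreted proteins and bile, and its loss causes Wilson disease. Strain, sex, age and the kind of knockout allele are not stated in the sources used here, nor whether each library came from a separate mouse, so p-values reflect spread among these libraries that could be technical.

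Type I interferons act through the receptor chains IFNAR1 and IFNAR2 and the kinases JAK1 and TYK2, which phosphorylate STAT proteins; in a complex with IRF9 these bind interferon-stimulated response elements (ISREs) in promoters. Type II interferon, IFN-gamma, acts through gamma-activated sites (GAS) in promoters and is a strong inducer of the guanylate-binding proteins and immunity-related GTPases. Most products of these genes bind foreign nucleic acid, block viral entry or release, or adjust the signal itself. In liver, hepatocytes, macrophages and endothelial cells can all respond.

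The promoters of 6 members are shown because their genes span the results that follow: Oasl2 and Oas3 were called higher in the labelled KO livers, Ifit3 and Rsad2 lay above the labelled WT livers without passing the test, Isg15 overlapped between the groups, and Ifitm2 was called lower. Each is the 150 bases just before the RefSeq start site, on the gene's strand, in GRCm38.p6 coordinates (the count table itself is on GRCm39). Capitals mark the ISRE core, GAAANNGAAA or its reverse complement TTTCNNTTTC.
Oasl2 (chr5:114896784-114896933, plus strand): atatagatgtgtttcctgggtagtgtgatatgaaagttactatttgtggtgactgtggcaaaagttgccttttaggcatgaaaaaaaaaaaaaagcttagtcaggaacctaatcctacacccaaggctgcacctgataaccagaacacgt
Oas3 (chr5:120777660-120777809, minus strand): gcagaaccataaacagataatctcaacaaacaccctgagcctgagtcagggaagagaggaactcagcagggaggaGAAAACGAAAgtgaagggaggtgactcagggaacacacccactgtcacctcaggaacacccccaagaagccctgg
Ifit3 (chr19:34583379-34583528, plus strand): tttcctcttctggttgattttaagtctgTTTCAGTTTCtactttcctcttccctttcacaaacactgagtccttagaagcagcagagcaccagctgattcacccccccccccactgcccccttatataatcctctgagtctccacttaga
Rsad2 (chr12:26456453-26456602, minus strand): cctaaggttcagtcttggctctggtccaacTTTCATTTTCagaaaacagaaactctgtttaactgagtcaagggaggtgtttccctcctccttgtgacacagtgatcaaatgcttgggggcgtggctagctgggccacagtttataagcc
Isg15 (chr4:156200819-156200968, minus strand): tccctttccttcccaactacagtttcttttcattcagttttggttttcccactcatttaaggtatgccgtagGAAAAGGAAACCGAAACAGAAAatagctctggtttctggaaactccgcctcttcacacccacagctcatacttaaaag
Ifitm2 (chr7:140955962-140956111, minus strand): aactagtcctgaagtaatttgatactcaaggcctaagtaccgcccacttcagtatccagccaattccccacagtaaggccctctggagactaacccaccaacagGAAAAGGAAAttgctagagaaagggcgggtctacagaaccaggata

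Of the 36 members, 28 matched a RefSeq promoter table by symbol, with 33 start sites. In the window from 250 bases before to 50 bases after the start, 19 of these 33 promoters (57.6%) held an ISRE core on either strand, against 1131 of all 32851 promoters (3.44%). The GAS letters TTCNNNGAA, which read the same on both strands, were in 8 of the 33 (24.2%) and in 8.3% of all promoters. Overlapping matches were each counted, as in the run of 3 ISRE cores before Isg15, and in Bst2 and Ifitm3 a GAS match overlapped an ISRE core. An ISRE core was found for 7 of the 9 matched genes that lay wholly above the labelled WT livers, for 10 of the 18 whose groups overlapped, and for Ifitm2. For Oasl2, called higher, no ISRE core was found in this window. These are matches of letters in a fixed window, not sites shown to be bound.

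Total counts per library were 68117601 to 70965999 in the labelled KO livers and 57886524 to 67280139 in the labelled WT livers. The members took 0.161% to 0.175% of the counts in the labelled KO livers and 0.121% to 0.166% in the labelled WT livers. Atp7b itself was not lower in the labelled KO livers, with 1987, 1908 and 2087 counts in those and 909, 1192 and 2051 counts in the labelled WT livers (log2 fold change 0.05, 95% interval -0.47 to 0.57; edgeR, adjusted p = 0.939), so its gene total does not check the labels and every direction here goes by label.

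The members that passed the test went in both directions. Oasl2 and Oas3 rose in the labelled KO livers, Ifitm2 fell, and 33 of 36 members did not pass the test (edgeR's quasi-likelihood test, adjusted p under 0.05 over all tested genes). The 2 members called higher were 5.56% of the members, with 0.932% of all tested genes called higher, and the 1 called lower was 2.78%, with 0.506% of all tested genes called lower. In 13 members (36.1%) all 3 labelled KO libraries lay above all 3 labelled WT libraries, as did 13.7% of all tested genes, and in 1 member (2.78%) all lay below, as did 12% of all tested genes. The members were chosen with earlier results of these data known, so these shares describe them and are not a test. The median log2 fold change, labelled KO over labelled WT, was 0.39 over the members and -0.02 over all tested genes, and 26 members had a positive and 10 a negative value. In bulk liver RNA, more cells of a type and more RNA per cell cannot be told apart.

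The calls depend on the fit. Over the 253 genes that edgeR called, adjusted p ran only from 0.0146 to 0.0498, and Oasl2, ranked 2 by p, had 0.038. Members just short of the threshold thus differed little from called members in adjusted p. DESeq2 called 12 members higher and 1 lower, with 7.46% and 3.15% of all tested genes called in those directions. With 1 library left out, edgeR called 0 members without labelled KO replicate 1, labelled WT replicate 2 or labelled WT replicate 3, where 0.0607%, 0% and 0.0217% of all tested genes were called. At an unadjusted p under 0.05, 15, 12 and 12 members were higher in those fits, beside 9.23%, 8.87% and 9.92% of all tested genes. It called 4 members higher without labelled KO replicate 2 (3.97% of all tested genes) and 5 higher without labelled WT replicate 1 (1.48%). Scaling to total counts in place of the trimmed mean of M-values (TMM) moved the median of all genes to 0.31 and called 14 members higher and 1 lower, with 5.34% and 0.381% of all tested genes called in those directions. Less the median of all genes, the member median was 0.41 with TMM and 0.39 with total counts.

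**Figure D1:**
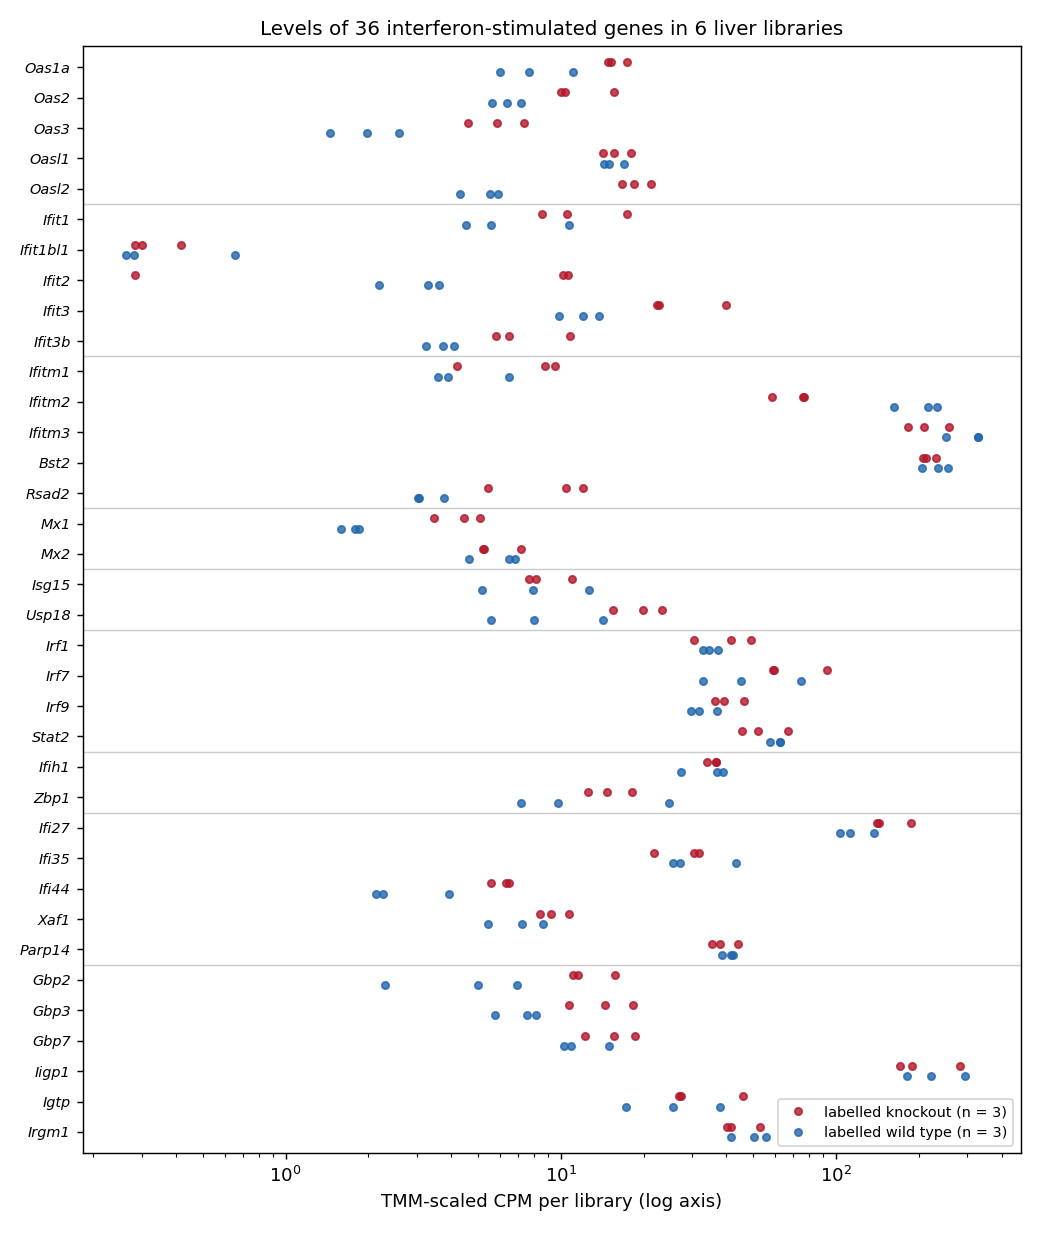
Level of each of the 36 genes in each library, as TMM-scaled CPM on a log axis, with the 3 labelled knockout libraries in red above the 3 labelled wild-type libraries in blue; grey lines part the role groups. The groups stand apart to the right for 13 genes, Oasl2 among them, and to the left for Ifitm2; the red point of Ifit2 far to the left is labelled knockout replicate 2.

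The oligoadenylate synthetase genes, whose enzymes sense double-stranded RNA and switch on RNase L, held both of the members that rose. Of these 5 genes, 4 had all labelled KO libraries above all labelled WT libraries, as did 13.7% of all tested genes. The family sum was 65.9 to 70.5 CPM in the labelled KO livers and 31.8 to 40.9 CPM in the labelled WT livers. The family lies on chromosome 5 in 2 stretches (GRCm39), with Oas2, Oas3 and Oas1a between 120868398 and 121045584 and Oasl2 and Oasl1 between 115034997 and 115075974.

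Oasl2, an OAS-like protein with ubiquitin-like repeats, had 1409, 1178 and 1890 counts in the labelled KO livers and 308, 294 and 260 counts in the labelled WT livers. The lowest labelled KO library stood 2.81-fold above the highest labelled WT library in CPM, the counts per 1e6 reads after TMM scaling. Its level was 18.8 ± 2.35 CPM in labelled KO and 5.25 ± 0.850 CPM in labelled WT livers (SD, n = 3 each), a 3.59-fold difference (log2 fold change 1.84 ± 0.18 SE, adjusted p = 0.038), and by p it ranked 2 among all tested genes. The call was lost without labelled KO replicate 1, labelled WT replicate 2 or labelled WT replicate 3 (adjusted p = 0.0561, 0.169 and 0.0827), while the log2 fold change ran from 1.71 to 1.95 over the libraries left out.

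Oas3, the long member of the synthetases, had 562, 415 and 408 counts in the labelled KO livers and 134, 105 and 88 counts in the labelled WT livers. It rose 2.97-fold (log2 fold change 1.57 ± 0.30, adjusted p = 0.0498). That call sat on the threshold: with DESeq2 size factors, a filter of 10 counts in 3 libraries or limma voom the adjusted p was 0.0506, 0.0501 and 0.0614. It was lost as well without labelled KO replicate 1 or 3 (adjusted p = 0.161 and 0.0681) and without labelled WT replicate 2 or 3 (adjusted p = 0.196 and 0.153), with log2 fold changes from 1.38 to 1.79 over the libraries left out. With all 6 libraries the call held with DESeq2's own test, with total counts and with no filter (adjusted p = 6.5e-05, 0.0316 and 0.0323).

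Oas1a, a synthetase of the small form, had 1136, 1077 and 1545 counts in the labelled KO livers and 577, 408 and 365 in the labelled WT livers. Oas2, the middle-sized form, had 1198, 704 and 918 counts in the labelled KO livers and 331, 383 and 339 in the labelled WT livers. Neither overlapped between groups and neither passed edgeR's test, with log2 fold changes of 0.94 and 0.91 (adjusted p = 0.0722 and 0.072). Oasl1, known in mouse as a brake on Irf7 translation, overlapped between groups, with 1094, 1270 and 1378 counts in labelled KO and 774, 906 and 871 in labelled WT livers (log2 fold change 0.05, 95% interval -0.28 to 0.38). Oas1a has near-identical relatives in its cluster, so its reads could have been shared between copies by the counting.

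The IFIT genes, whose proteins bind viral RNA and hold back its translation, lie in a cluster on chromosome 19 (GRCm39, 34528094 to 34627409). Of these 5 genes 0 passed the test, with 1.44% of all tested genes called in either direction. Ifit3 had 1747, 2804 and 1979 counts in the labelled KO livers and 714, 523 and 728 in the labelled WT livers. Its log2 fold change was 1.25 ± 0.25 (adjusted p = 0.0519), just short of the threshold. Ifit3b, a near-copy of Ifit3 whose reads may be mixed with it, had 498, 763 and 513 counts in the labelled KO livers and 193, 173 and 248 in the labelled WT livers (log2 fold change 1.06, adjusted p = 0.0848). In both genes every labelled KO library was above every labelled WT library and labelled KO replicate 2 was the highest.

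Ifit1, which recognises RNA with an unmethylated cap, was at 10.6, 17.5 and 8.52 CPM in the labelled KO livers and at 10.7, 5.59 and 4.53 CPM in the labelled WT livers. The groups overlapped through labelled WT replicate 1 (log2 fold change 0.81, adjusted p = 0.295). Ifit1bl1, an IFIT1-like gene, was scarcely present, with 20 to 37 counts in the labelled KO and 14 to 34 counts in the labelled WT livers.

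Ifit2 went apart from its neighbours in 1 library. It had 815, 20 and 898 counts in the labelled KO livers and 187, 116 and 199 counts in the labelled WT livers, so labelled KO replicates 1 and 3 were above all labelled WT libraries and replicate 2 was below all of them. In that same library Ifit3, Ifit3b and Ifit1 had their highest levels of the 6. The highest and lowest labelled KO libraries differed 37.5-fold in Ifit2; of 10085 tested genes with a labelled KO mean of at least 5 CPM, 21 including Ifit2 had a spread that wide, and in 6 of these the low library was replicate 2. The log2 fold change over all libraries was 1.22 ± 1.05 (adjusted p = 0.597), and without labelled KO replicate 2 it was 1.81 (adjusted p = 0.0213). Ifit2 was singled out after its values were seen.

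**Figure D2:**
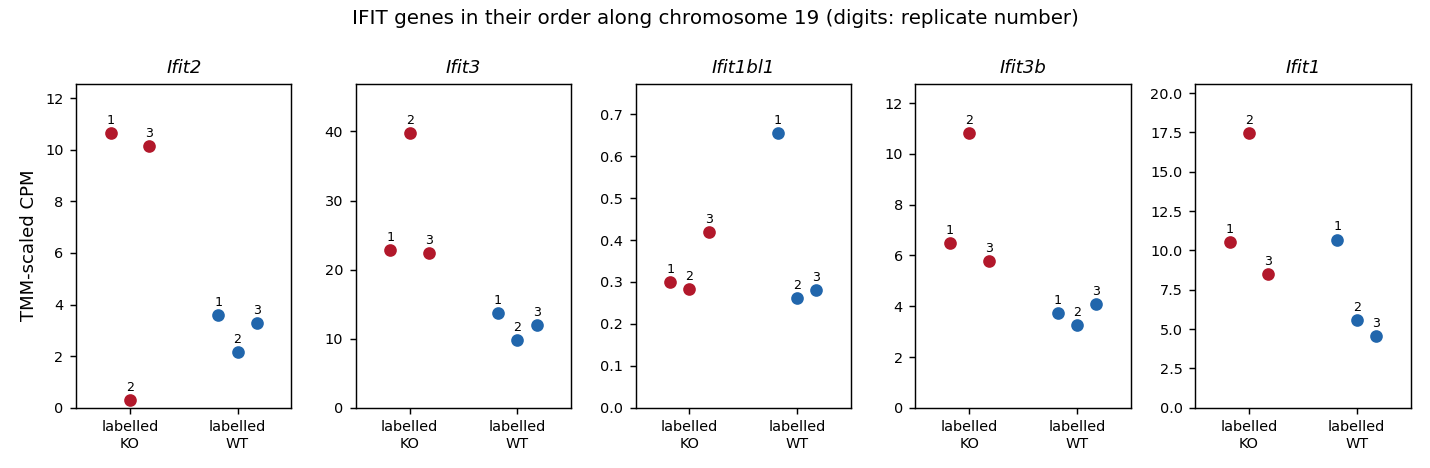
Level of the 5 IFIT genes, in their order along chromosome 19, in each library (TMM-scaled CPM, separate linear axes from 0, labelled knockout in red at left and labelled wild type in blue at right, digits give the replicate number). Labelled knockout replicate 2 is the highest library for Ifit3, Ifit3b and Ifit1 and is at 0.284 CPM for Ifit2.

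The IFITM genes, small membrane proteins that hinder the fusion of virus with the endosome, held the member that fell. Ifitm2 (chromosome 7, 140534750 to 140535900, GRCm39) had 5873, 5356 and 5191 counts in the labelled KO livers and 12095, 11529 and 9859 counts in the labelled WT livers. All labelled KO libraries were at most 76.7 CPM and all labelled WT libraries at least 163 CPM. It fell to 70.4 ± 10.2 CPM in labelled KO livers, against 204 ± 36.6 CPM in labelled WT livers (SD, n = 3 each; log2 fold change -1.54 ± 0.19, adjusted p = 0.039). As with Oasl2, the call was lost without labelled KO replicate 1, labelled WT replicate 2 or labelled WT replicate 3 (adjusted p = 0.0993, 0.169 and 0.0887), with log2 fold changes from -1.68 to -1.42.

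Ifitm3, the family member best known for holding back influenza virus, was at 208, 257 and 183 CPM in the labelled KO and 327, 328 and 250 CPM in the labelled WT livers, overlapped slightly and did not pass (log2 fold change -0.48, 95% interval -0.92 to -0.05, adjusted p = 0.21). Ifitm1, which acts nearer the cell surface, overlapped between groups (log2 fold change 0.69, adjusted p = 0.346). Per kilobase of the longest annotated transcript, Ifitm3 and Ifitm2 were among the most abundant members, with 382 and 210 CPM per kilobase as a mean of the group means, beside 283 for Bst2 and 141 for Ifi27. Oasl2 and Oas3, the members that rose, were at 3.85 and 0.842 CPM per kilobase. These IFITM genes are paralogs, and reads common to them could have been divided between them.

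Bst2 encodes tetherin, which ties budding virus to the cell, and its libraries overlapped at 206, 232 and 212 CPM in labelled KO and 255, 235 and 205 CPM in labelled WT livers. Rsad2 encodes viperin, a radical enzyme that makes a chain-terminating nucleotide, and had 800, 850 and 480 counts in the labelled KO livers and 195, 163 and 183 in the labelled WT livers. The groups for Rsad2 were apart, with a log2 fold change of 1.5 ± 0.31 that just missed the threshold (adjusted p = 0.0538).

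Mx1 and Mx2 encode dynamin-like GTPases that block incoming virus; the deposited annotation gives both a loss-of-function transcript class. Mx1 had 265, 358 and 394 counts in the labelled KO livers and 93, 85 and 112 in the labelled WT livers, without overlap (log2 fold change 1.31 ± 0.26, adjusted p = 0.0513). Mx2 had 549, 367 and 466 counts in the labelled KO and 355, 345 and 281 in the labelled WT livers, with overlapping levels and a log2 fold change of -0.03 (95% interval -0.56 to 0.51).

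Isg15 and Usp18 form a pair: Isg15 is a ubiquitin-like protein joined to others, and Usp18 is the protease that removes it and also restrains the type I receptor. Usp18 had 1184, 1645 and 1767 counts in the labelled KO livers and 740, 426 and 336 in the labelled WT livers (log2 fold change 1.08, adjusted p = 0.133). Its groups were apart by little, since the lowest labelled KO library stood 1.08-fold above labelled WT replicate 1. Isg15 had 588, 776 and 722 counts in the labelled KO and 658, 422 and 313 in the labelled WT livers. Its highest level of the 6 was in labelled WT replicate 1, at 12.7 CPM, and its log2 fold change was 0.06 (95% interval -0.67 to 0.79).

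The factors that carry the signal to the nucleus overlapped between groups in 4 of 4 cases, as did 13075 of all 17606 tested genes. Irf9, the DNA-binding part of the ISRE complex, had the smallest p among them, with 2778, 3256 and 3481 counts in the labelled KO and 1911, 1697 and 1797 in the labelled WT livers (log2 fold change 0.31, 95% interval -0.01 to 0.62, adjusted p = 0.267). Irf7, which amplifies interferon production, was at 0.47, Irf1, a factor early in the IFN-gamma response, at 0.21 and Stat2 at -0.15, on the same log2 scale. Each of those 3 intervals held 0.

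Ifih1 encodes MDA5, a sensor of long double-stranded RNA, and had 2595, 2590 and 3233 counts in the labelled KO and 1418, 1971 and 2352 in the labelled WT livers (log2 fold change 0.05, 95% interval -0.29 to 0.40). Zbp1, a sensor of Z-form nucleic acid that can start necroptosis, had 12.5, 18.2 and 14.7 CPM in the labelled KO livers and 24.7, 9.76 and 7.18 CPM in the labelled WT livers. For Zbp1 the highest and the lowest libraries of the 6 were both labelled WT.

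Of the remaining inducible genes, Ifi44 had 485, 456 and 492 counts in the labelled KO livers and 203, 120 and 129 in the labelled WT livers, with the groups apart (log2 fold change 1.15 ± 0.28, adjusted p = 0.0768). Ifi27, of the small hydrophobic ISG12 family, had 10987, 13259 and 12511 counts in the labelled KO and 7111, 5989 and 6250 in the labelled WT livers; its CPM ranges were 1.03-fold apart (log2 fold change 0.42, adjusted p = 0.232). Xaf1, a partner of the apoptosis inhibitor XIAP, was at 0.41, Parp14, a mono-ADP-ribosyltransferase, at -0.06 and Ifi35 at -0.19 in log2 fold change, all 3 with overlapping groups.

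The guanylate-binding proteins and immunity-related GTPases, which attack the vacuoles of intracellular microbes, had 2 of 6 genes with the groups apart and 0 called. Of all tested genes, 13.7% had the labelled KO libraries wholly higher and 1.44% were called in either direction. Gbp3 had 1112, 1285 and 946 counts in the labelled KO livers and 422, 400 and 349 in the labelled WT livers (log2 fold change 1.02 ± 0.23, adjusted p = 0.0627). Gbp2 had 887, 1110 and 979 counts in the labelled KO livers and 360, 122 and 303 in the labelled WT livers (log2 fold change 1.43 ± 0.37, adjusted p = 0.0872). In both genes every labelled KO library was the higher, while Gbp7, from the same chromosome 3 cluster, overlapped (log2 fold change 0.36). The GTPases Igtp, Irgm1 and Iigp1 overlapped as well, at log2 fold changes of 0.31, -0.13 and -0.12. Gbp genes are paralogs and may share reads.

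**Figure D3:**
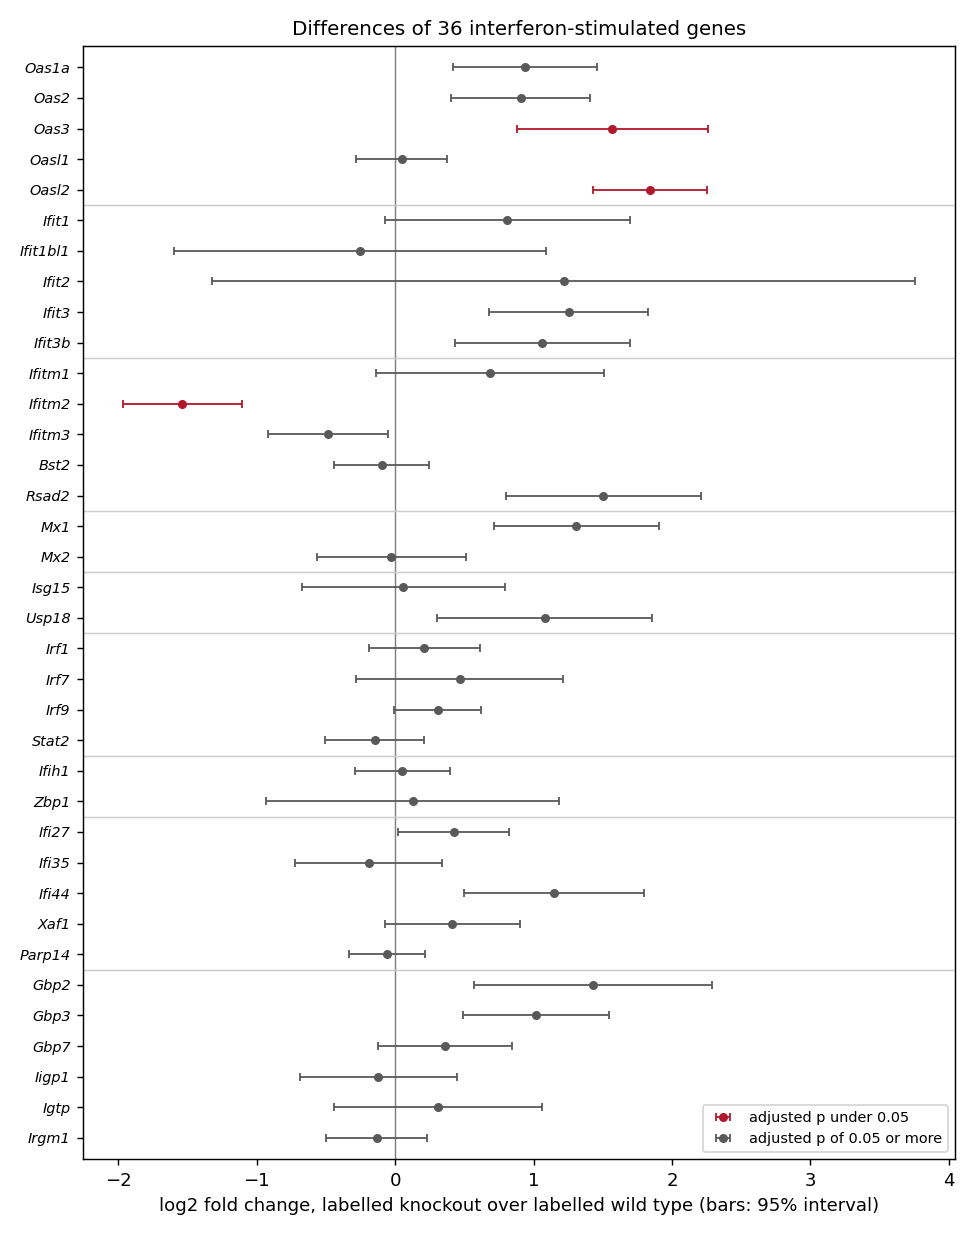
Log2 fold change of each of the 36 genes, labelled knockout over labelled wild type, with its 95% interval from edgeR's quasi-likelihood fit; red marks an adjusted p under 0.05 and grey lines part the role groups. Oasl2 and Oas3 stand to the right and Ifitm2 to the left, and Ifit2 has the widest interval, from -1.32 to 3.76.

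The libraries within a group also differed in a way shared by many members. Labelled KO replicate 2 was the highest labelled KO library for 24 of 36 members, and labelled WT replicate 1 was the highest labelled WT library for 28. Labelled WT replicate 3 was the lowest labelled WT library for 26 members and the lowest of all 6 for 19. The median deviation of the members from their own means over the 6 libraries, in log2(CPM + 0.5), was 0.17, 0.39 and 0.07 in labelled KO replicates 1, 2 and 3 and 0.07, -0.26 and -0.43 in labelled WT replicates 1, 2 and 3. Labelled WT replicate 1 thus stood level with labelled KO replicate 3 on this measure. The median log2 fold change of the members was 0.61 without labelled WT replicate 1 and 0.24 without labelled KO replicate 2.

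**Figure D4:**
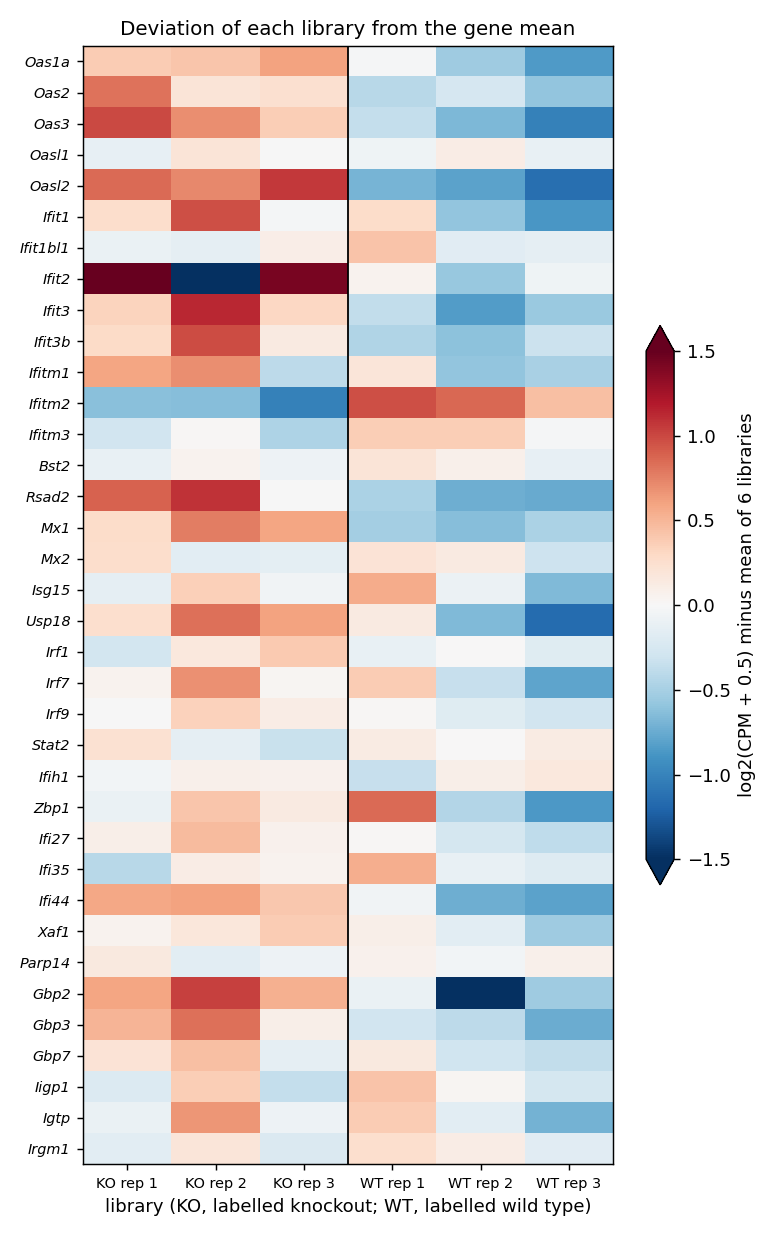
Deviation of each library from the gene's mean over the 6 libraries, in log2(CPM + 0.5), for the 36 genes (rows) in the 3 labelled knockout (left) and 3 labelled wild-type (right) libraries; red is above the mean, blue below, and the colour scale ends at 1.5 in either direction. Labelled wild-type replicate 1 is paler or redder than the other wild-type libraries in most rows, and Ifitm2 is blue in the labelled knockout and red in the labelled wild-type libraries.

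Upstream of the members, 4 of 21 listed interferon ligand genes had a row. The others had none, so their levels are not known here. Of these 4, 0 had enough counts to be tested, and the largest value was 23 counts of Ifng, the type II interferon, in labelled KO replicate 3, with 0 and 3 in the other labelled KO libraries and 0 to 4 in the labelled WT libraries. A count of 3, taken as the smallest detectable level, was 0.0339 to 0.0425 CPM in labelled KO and 0.0496 to 0.0578 CPM in labelled WT libraries, a floor that covers counting error only.

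Of 9 receptor and kinase genes 0 were called, with 1.44% of all tested genes called in either direction. Il10rb, a shared chain of the type III interferon receptor, was at a log2 fold change of 1.15 (adjusted p = 0.051), Ifngr1, the ligand-binding IFN-gamma chain, 0.74 (adjusted p = 0.0765) and Tyk2 -0.22 (adjusted p = 0.381). Among 9 further STAT and IRF genes 1 was called higher and 0 lower, with 0.932% and 0.506% of all tested genes called in those directions. The 1 was Irf2bp2, which encodes a partner of the repressor IRF2 (log2 fold change 0.57, adjusted p = 0.0489), close to the threshold.

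Among 19 tested sensors and adaptors 0 were called, with 1.44% of all tested genes called in either direction. In 7 (36.8%) all labelled KO libraries lay above all labelled WT libraries, as did 13.7% of all tested genes. In 1 (5.26%) all lay below, as did 12% of all tested genes. Those with the smallest p were the DNA sensor Cgas (log2 fold change 2.13, adjusted p = 0.0566), its adaptor Sting1 (1.52, adjusted p = 0.0626) and the nucleotide hydrolase Samhd1 (0.58, adjusted p = 0.0684). Cgas had 113, 83 and 118 counts in the labelled KO livers and 21, 9 and 20 in the labelled WT livers. Of 10 genes listed as restraining the signal 1 was called higher and 0 lower, beside 0.932% and 0.506% of all tested genes. The 1 was Tnfaip3, a ubiquitin editor of NF-kB and RIG-I signalling (log2 fold change 1.58, adjusted p = 0.038). Without labelled WT replicate 2, where 0% of all tested genes were called, the calls of Irf2bp2 and Tnfaip3 were lost.

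Of the marker genes of other cell types, 3 were called, all higher in the labelled KO livers, with 0.932% of all tested genes called higher. Without labelled WT replicate 2, where 0% of all tested genes were called, these 3 calls were lost. The summed level of 10 markers of recruited macrophages and monocytes was 481 to 1355 CPM in the labelled KO livers and 187 to 324 CPM in the labelled WT livers. Of the 10, 1, Cd68, was called higher, and all 10 had positive log2 fold changes. At an unadjusted p under 0.05 (edgeR) all 10 were higher, beside 12% of all tested genes. In 9 of the 10 every labelled KO library lay above every labelled WT library, as did 13.7% of all tested genes. The marker lists too were chosen with earlier results of these data known. Of 8 stellate cell and fibroblast markers 1, Dcn, was called higher, with sums of 455 to 792 CPM in labelled KO and 211 to 232 CPM in labelled WT livers. All 8 were higher at an unadjusted p under 0.05, and 6 lay wholly above the labelled WT livers. Of 5 bile duct markers 1, Krt23, was called higher, with sums of 14.8 to 60.8 CPM in labelled KO and 6.12 to 10.7 CPM in labelled WT livers. The other 4 bile duct markers overlapped between groups, and without Krt23 the sums overlapped too, at 16.4, 5.08 and 48.4 CPM in the labelled KO and 5.80, 9.97 and 5.84 CPM in the labelled WT livers. Among the labelled KO livers, replicate 2 had the lowest macrophage sum, 481 CPM, and the highest median deviation of the members. Among the labelled WT livers, replicate 1 had both the highest macrophage sum, 324 CPM, and the highest median deviation. Labelled WT replicate 3 had the lowest of both. Its place below labelled WT replicate 2 in the macrophage sum rests on Spp1, at 74.8 CPM against 90.4 CPM. Lyz2, the other large part of the sum in these libraries, went the other way, at 91.8 CPM against 81.1 CPM. Spp1 overlapped between the groups.

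In other lists the sums overlapped between groups. This held for 9 Kupffer cell markers (557 to 734 CPM in labelled KO, 464 to 835 CPM in labelled WT livers), 14 T and natural killer cell markers (6.89 to 18.7 CPM in labelled KO, 6.85 to 8.90 CPM in labelled WT livers) and 7 neutrophil markers (8.23 to 12.3 CPM in labelled KO, 7.64 to 10.9 CPM in labelled WT livers). They also overlapped for 5 B cell markers (11.3 to 32.1 CPM in labelled KO, 10.6 to 19.99 CPM in labelled WT livers) and 8 endothelial markers (86.5 to 170 CPM in labelled KO, 106 to 152 CPM in labelled WT livers). In each of these lists 0 were called, with 1.44% of all tested genes called in either direction. Within the Kupffer list Adgre1, C1qa and C1qc were wholly higher and Clec4f and Marco wholly lower in the labelled KO livers. Of the 14 T and natural killer cell markers 13 had positive log2 fold changes, and 4 were wholly higher in the labelled KO livers. The other, Cd4, was wholly lower there and had the smallest p of that list (edgeR, log2 fold change -1.87, adjusted p = 0.0596). The 8 hepatocyte markers summed to 56010 to 68970 CPM in labelled KO and 55180 to 63760 CPM in labelled WT livers, with 0 called and none under 287 CPM in any library. Albumin (Alb) made up most of that sum and was the one marker with a positive log2 fold change, 0.37. The other 7 were negative and summed to 17960 to 23580 CPM in labelled KO and 26540 to 28790 CPM in labelled WT livers, without overlap, and the median of the 8 log2 fold changes was -0.28. Siglech, which defines plasmacytoid dendritic cells, the main producers of type I interferon, had 11 to 31 counts in labelled KO and 10 to 21 in labelled WT libraries. The 6 markers listed for plasmacytoid dendritic cells summed to 217 to 239 CPM in labelled KO and 213 to 265 CPM in labelled WT livers, most of it Bst2, itself a member. The neutrophil marker Ly6g had 0 counts in every labelled KO library and 0, 3 and 8 counts in the labelled WT libraries. The part of these cell types in the members' levels was not tested.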

How the data were processed

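Per the labels' protocols, polyadenylated liver RNA was fragmented, copied and made into strand-marked libraries with dUTP. The authors deposited raw whole-number read counts per gene, 1 column per library, checked here as whole numbers; the submitters' processing notes name GRCm39 and edgeR without roles or versions. Aligner, counting program, annotation release and use of strand are not stated in the sources used here, and antisense, overlapping and paralogous genes are uncertain. Columns were matched to samples by title.

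Genes passing edgeR's filterByExpr were scaled by TMM and tested by the robust quasi-likelihood method of edgeR 4.0.16 (with limma 3.58.1, DESeq2 1.42.0 and R 4.3.3), Benjamini-Hochberg over all tested genes, called at an adjusted p under 0.05. SE and 95% intervals came from the F statistic. The fit was checked on simulated data. Lengths were the longest GENCODE vM21 transcript per gene. Each pair of libraries within a group differed beyond counting noise, with a mean chi-square of 63 or more over genes. The replicate numbers come from titles that state no shared source.

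The members and gene lists were chosen with earlier results of these data known. Members were given with counts in every library where called, where groups did not overlap, or where p was smallest in a role group. Pathway genes were those called or the 3 smallest p of a list, and Socs3 was given beyond that rule. Alternatives were other scalings, filters and tests, the replicate block and each library left out.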

Additional observations from a re-analysis of the deposited data

How the results depend on the processing

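With other settings the count of genes called was 1008 with total counts, 473 with no filter, 1867 with DESeq2 and 71 with limma voom, against 253, and 0 to 912 with 1 library left out. Members called higher numbered 1 with DESeq2 size factors, with a filter of 10 counts in 3 libraries or with limma voom (0.858%, 0.856% and 0.182% of all tested genes called higher), 14 with total counts, 6 with no filter (1.25%) and 12 with DESeq2, against 2, and 0 to 5 with 1 library left out; members called lower numbered 1 in each of these (0.432%, 0.459% and 0.222% of all tested genes called lower with DESeq2 size factors, the filter of 10 counts and limma voom, and 0.454% with no filter) except with a library left out, where they were 0 to 1. The member median was 0.70 with total counts, a scaling that moved all genes, and 0.24 to 0.61 with 1 library left out. Members wholly above the labelled WT libraries numbered 21 with total counts, where 30.2% of all tested genes lay so, and 13 with DESeq2 size factors (14.2%), both alternatives chosen after seeing the data. Under the replicate block 4 genes, 0 members higher and 0 lower were called (2926 genes, 13 members higher and 2 lower at an unadjusted p under 0.05, beside 10.5% and 6.13% of all tested genes), with an adjusted p of 0.0534 for Oasl2 and Ifitm2 and 0.0612 for Oas3; same-numbered libraries did not deviate together (correlations -0.02, -0.05 and -0.04), and no library correlated best with its own number, so the numbers were not taken as pairs.

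With total counts the sign turned positive for Ifit1bl1 (0.094), Bst2 (0.23), Mx2 (0.31), Stat2 (0.18), Ifi35 (0.14), Parp14 (0.28), Iigp1 (0.18) and Irgm1 (0.18), each at or below the median of all genes under that scaling, 0.31. With 1 library left out the log2 fold change crossed 0 for Oasl1 (-0.018 to 0.12), Ifit1bl1 (-0.48 to 0.29), Mx2 (-0.19 to 0.087), Isg15 (-0.20 to 0.45), Ifih1 (-0.089 to 0.15), Zbp1 (-0.19 to 0.84), Ifi35 (-0.33 to 0.088), Parp14 (-0.15 to 0.038) and Iigp1 (-0.34 to 0.082); none of these 9 was called in any of these fits. Low counts limit Ifit1bl1, the interferon ligands and the lymphocyte markers.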

Other observations

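Beside the IFIT cluster on chromosome 19 lie Ch25h, an interferon-inducible oxysterol enzyme, and the lysosomal acid lipase Lipa, both looked at after the values of Ifit2 were seen. Ch25h had 87, 12 and 48 counts in the labelled KO livers and 0, 0 and 12 in the labelled WT livers, so labelled KO replicate 2 was the lowest labelled KO library for it as for Ifit2. Lipa had 15446, 15270 and 16200 counts in the labelled KO livers and 7710, 8207 and 9486 in the labelled WT livers, with no low library. Socs3, a cytokine-induced brake on JAK kinases, had 2512, 616 and 2713 counts in the labelled KO livers and 2027, 1389 and 493 in the labelled WT livers. Replicate 2 was the low labelled KO library, though the labelled WT libraries spread as widely. Socs3 was named outside the rule for pathway genes, and no share of all genes with replicate 2 lowest is given beside it.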
